A study of Homo sapiens with 10 samples.

Results

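The genes described here are the G1 cyclins, their kinase partners and the inhibitors of those kinases, 10 genes among the 19970 protein-coding genes of GENCODE release 44: the D cyclins CCND1, CCND2 and CCND3, the E cyclins CCNE1 and CCNE2, the kinases CDK4 and CDK6, and the inhibitors CDKN1A, CDKN1B and CDKN2B. They were chosen by symbol. For each gene, the H3K27ac peaks (histone H3 acetylated at lysine 27, a mark of active promoters and enhancers) that overlapped the gene body or the 50 kb on either side of it were taken from 8 peak lists called on the hg38 genome. Peaks of the 8 lists that shared at least 1 base were joined into regions, which gave 71 regions in the windows of the 10 genes out of 76044 on chromosomes 1 to 22 and X.

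The lists come from SKBR3 and MDA-MB-453, 2 established HER2 breast cancer cell lines. Cells were starved of serum for 8 h in Opti-MEM and either left untreated or given the cytokine TWEAK at 10 ng/ml for 48 h, with fresh TWEAK after 24 h. Each of the 4 groups (SKBR3 untreated, SKBR3 with TWEAK, MDA-MB-453 untreated, MDA-MB-453 with TWEAK) had 2 libraries, which the study's methods describe as biological replicates. The 2 input samples, 1 per line, were not analysed here as lists of their own.

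Entry into S phase depends on cyclin D bound to CDK4 or CDK6, which phosphorylates the retinoblastoma protein and frees E2F factors, among whose targets are the E cyclins that activate CDK2. The p15 protein made by CDKN2B blocks CDK4 and CDK6, and the p21 and p27 proteins made by CDKN1A and CDKN1B bind cyclin complexes more broadly and restrain CDK2. In HER2 breast cancer this step is of interest because signals from the HER2 receptor act through cyclin D1, and inhibitors of CDK4 and CDK6 are used in breast cancer therapy. TWEAK acts through its receptor Fn14, which feeds NF-κB and AP-1 factors.

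RefSeq promoters were taken for 7 of the 10 genes (GRCh38.p14, all identical to the hg38 genome). CCND1 and CCND2 had none in the set used, and the CCNE2 promoter was not searched. The first 5 sequences are the 250 bases before a start site, written 5′ to 3′ on the strand of the gene. GC boxes (GGGCGG on either strand) are in capitals. The sequences show CCNE1 (chr19:29811741-29811990, plus strand), whose promoter ranked very differently in the cell lines. The CDK6 stretch (chr7:92833960-92834209, minus strand) lies before a start inside the gene, where only SKBR3 had peaks. The inhibitors are CDKN1A (chr6:36678464-36678713, plus strand), CDKN1B (chr12:12717118-12717367, plus strand) and CDKN2B (chr9:22009306-22009555, minus strand).
CCNE1: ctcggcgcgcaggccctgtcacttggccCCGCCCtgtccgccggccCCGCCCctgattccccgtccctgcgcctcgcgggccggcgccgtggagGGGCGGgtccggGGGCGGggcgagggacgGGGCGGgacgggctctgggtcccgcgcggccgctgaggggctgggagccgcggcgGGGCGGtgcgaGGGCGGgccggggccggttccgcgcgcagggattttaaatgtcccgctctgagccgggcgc
CDK6: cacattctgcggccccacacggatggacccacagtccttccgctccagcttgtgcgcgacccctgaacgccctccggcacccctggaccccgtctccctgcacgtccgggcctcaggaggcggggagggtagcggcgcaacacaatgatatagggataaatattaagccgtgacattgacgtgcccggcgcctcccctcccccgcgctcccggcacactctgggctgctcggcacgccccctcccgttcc
CDKN1A: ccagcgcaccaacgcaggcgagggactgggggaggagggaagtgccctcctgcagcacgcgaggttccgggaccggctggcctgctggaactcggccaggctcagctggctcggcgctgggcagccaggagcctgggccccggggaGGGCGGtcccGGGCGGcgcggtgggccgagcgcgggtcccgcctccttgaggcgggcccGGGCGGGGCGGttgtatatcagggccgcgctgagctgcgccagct
CDKN1B: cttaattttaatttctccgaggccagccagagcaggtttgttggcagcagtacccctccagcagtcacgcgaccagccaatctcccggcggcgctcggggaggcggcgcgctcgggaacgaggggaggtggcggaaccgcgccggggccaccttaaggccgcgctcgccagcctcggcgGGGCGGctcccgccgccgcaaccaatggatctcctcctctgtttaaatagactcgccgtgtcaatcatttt
CDKN2B: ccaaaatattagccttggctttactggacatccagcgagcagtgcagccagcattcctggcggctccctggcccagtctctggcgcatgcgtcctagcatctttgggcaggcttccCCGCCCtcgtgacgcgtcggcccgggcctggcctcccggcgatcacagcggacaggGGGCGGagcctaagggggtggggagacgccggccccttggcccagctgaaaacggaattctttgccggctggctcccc

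The CCNE1 promoter held 7 GC boxes, CDKN1A 4, CDKN2B 2, CDKN1B 1 and the CDK6 promoter none in this window. The window before the other CDK6 start (chr7:92836573), at the annotated 5′ end of the gene, held 3 GC boxes. No list had a peak over it. Over 35116 RefSeq promoters of the same length, 42.6% held a GC box. The NF-κB consensus, AP-1 (TGANTCA), E2F (TTTNNCGC) and CRE (TGACGTCA) were each searched on both strands. No match was found in these 5 windows or in the 5 other RefSeq starts of the 7 genes searched. Among all promoters 5.21% held the NF-κB consensus, 6.57% AP-1, 5.92% E2F and 1.65% CRE. Peaks lay over the CCNE1, CDKN1B and CDKN2B windows in all 8 lists, over the CDK6 window in 3 lists, all of SKBR3, and over the CDKN1A window in 1 list, since the CDKN1A peaks began at the start site and ran into the gene.

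The next 4 sequences are 120 bases each from regions outside the members' own promoters, on the plus strand of hg38, with an NF-κB match (CCND1 and CDKN2B) or an AP-1 match (CDKN1A and CDK6) in capitals. The CDKN1A (chr6:36643252-36643371) and CDKN2B (chr9:22052758-22052877) stretches lie in regions gained with TWEAK in SKBR3. The CCND1 (chr11:69668576-69668695) and CDK6 (chr7:92621804-92621923) stretches lie in regions found only in SKBR3. A joined region can be wider than the peak of a single list. The CDK6 match lay outside the peaks of both untreated SKBR3 lists, and only the TWEAK replicate 1 peak covered it whole.
CCND1 region: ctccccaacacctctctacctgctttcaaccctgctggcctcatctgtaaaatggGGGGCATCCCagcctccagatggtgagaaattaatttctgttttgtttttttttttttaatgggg
CDK6 region: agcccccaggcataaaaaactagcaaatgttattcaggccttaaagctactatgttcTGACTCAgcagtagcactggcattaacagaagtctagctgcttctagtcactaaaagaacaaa
CDKN1A region: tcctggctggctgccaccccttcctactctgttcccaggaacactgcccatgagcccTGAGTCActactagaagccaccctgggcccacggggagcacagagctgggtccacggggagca
CDKN2B region: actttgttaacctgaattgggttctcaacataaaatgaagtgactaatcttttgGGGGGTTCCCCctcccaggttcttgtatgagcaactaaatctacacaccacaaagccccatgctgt

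The capitals in the CDKN2B region cover 2 matches that overlap, and only the SKBR3 TWEAK replicate 1 list had a peak over them. In windows of 1000 bp at the midpoints of all 76044 regions, 13.8% held the NF-κB consensus and 34.0% the AP-1 letters, so a single match in a region is common. The regions shown were picked from those with a match. Other gained regions, in the CCND3 (chr6:42082704-42084244) and CDKN1A (chr6:36711623-36712555) windows, held neither motif in such a window. The highest ranking SKBR3-only region of CDK6 (chr7:92649632-92655529) also held neither.

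The lists held between 43684 and 51687 peaks in SKBR3 and between 36148 and 37813 in MDA-MB-453, covering 92.1 to 105.7 Mb and 70.5 to 72.1 Mb. SKBR3 TWEAK replicate 2 had the longest list, and 5 of the 8 member regions seen in only 1 list were seen in that one. Promoters of ERBB2, GRB7, GATA3, FOXA1, KRT8, KRT18 and EPCAM, marker genes of HER2 and luminal breast cancer cells, had peaks in all 8 lists. PTPRC and CD3E (leukocytes), COL3A1 (fibroblasts) and PECAM1 (endothelium) had none, and COL1A1 and CDH5, also from the fibroblast and endothelial lists, had promoter peaks in all 8. Read counts were not analysed, so the depth is unknown and a region without a peak may have had signal under the caller's threshold.

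Most of the 71 member regions lay away from promoters: 46 were distal, 11 lay within 1 kb of a start site of a member gene, and 14 within 1 kb of the start of a neighbouring gene. 25 regions (35.2%) had a peak in all 8 lists, against 23.3% of all 76044 regions. Every member but CCND2 had a promoter region in at least 1 list, and 7 had one in all 8. The measures given for each member are whether a region had a peak, the percentile of its highest peak score within its list, which is highest for the top peak, and the covered length, the kb of peak inside the gene window. The tests are limma fits across all regions or all protein-coding genes, with Benjamini-Hochberg adjusted p-values and 0.05 as the threshold, and estimates are given with their standard errors (SE).

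**Figure D1:**
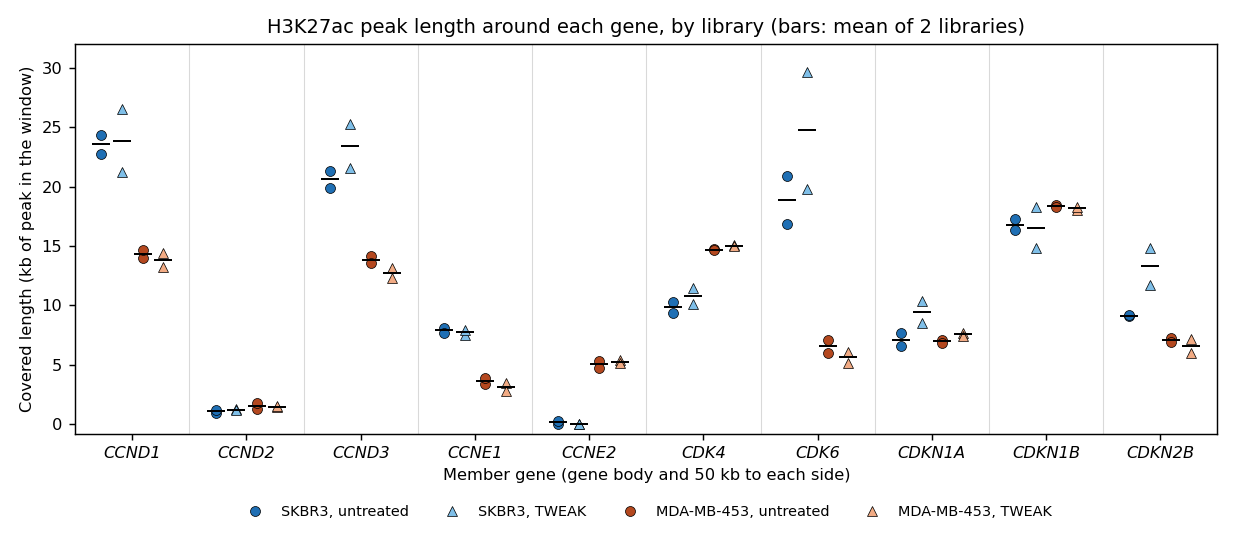
Covered length, in kb of H3K27ac peak within the gene body and 50 kb on each side, for the 10 genes (x axis) in each of the 8 libraries, with bars at the mean of the 2 libraries of a group. CDK6 sits between 16.8 and 29.6 kb in SKBR3 and between 5.2 and 7.1 kb in MDA-MB-453, and CCNE2 is near 0 in SKBR3 only.

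CCND1, which encodes cyclin D1, the D cyclin most often overexpressed in breast cancer, lay under a domain of acetylation in both lines (gene body chr11:69641156-69654474). Its promoter region (chr11:69634833-69656721) reached across the whole gene. The percentiles were 96.8 and 90.2 for untreated SKBR3, 92.9 and 85.9 with TWEAK, 94.5 and 92.9 in untreated MDA-MB-453 and 95.7 and 94.9 with TWEAK. These overlapped between the lines and the difference did not pass the test (SKBR3 minus MDA-MB-453, −3.07 percentile points, SE 1.81, limma adjusted p = 0.164), though it did without SKBR3 untreated replicate 1 (−4.72, adjusted p = 0.0448) or SKBR3 TWEAK replicate 1 (−4.81, adjusted p = 0.0293). The domain was wider in SKBR3: peaks filled 18.3 to 20.9 kb of it there and 12.1 to 13.7 kb in MDA-MB-453 (log2 difference of width 0.59, SE 0.05, adjusted p = 0.000101). In each MDA-MB-453 list a peak over the 5′ end of the gene and another over its 3′ end were separated by a stretch with no peak or only a narrow one of low rank, at 8.2 and 8.7 in the lists that had it.

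Over the CCND1 window the covered length was 23.7 ± 2.26 kb in SKBR3 and 14.1 ± 0.641 kb in MDA-MB-453 (SD, n = 4 each), a log2 difference of 0.71 (SE 0.08, limma adjusted p = 0.000141), on the scale of log2(bp + 1000) used for all covered lengths. Part of it was a region 27.9 kb downstream of the CCND1 start (chr11:69666446-69671579), near the start of LTO1, with percentiles of 60.4, 23.8, 53.2 and 49.0 in SKBR3 and no peak in MDA-MB-453. Its NF-κB match is shown above. The second region at the LTO1 start also ranked higher in SKBR3, at 69.4 to 80.1 against 49.4 to 61.1 (adjusted p = 0.00183).

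CCND2 and CCND3, the other two D cyclins, differed from each other in how much acetylation surrounded them. CCND2 (chr12:4269771-4305353) had no peak within 1 kb of its starts in any list. Its window held 2 regions, both at the neighbouring gene TIGAR, and 0.957 to 1.23 kb of peak in SKBR3 against 1.25 to 1.81 kb in MDA-MB-453, a difference that did not pass the test (adjusted p = 0.104). It passed with q under 1e-05 (log2 difference −0.21, adjusted p = 0.0440), by exact permutation (adjusted p = 0.0401), per Mb covered (−0.47, adjusted p = 0.00478) and without MDA-MB-453 untreated replicate 1 (−0.30, adjusted p = 0.0469). The TIGAR promoter region ranked higher in SKBR3 (59.7 to 72.7 against 46.0 to 59.8, adjusted p = 0.047) although it was narrower there (log2 difference −0.38, adjusted p = 0.0333).

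CCND3 (chr6:41934934-42050357) had 12 regions, 22.01 ± 2.32 kb of peak in SKBR3 and 13.3 ± 0.771 kb in MDA-MB-453 (SD, n = 4 each), a log2 difference of 0.68 (SE 0.07, limma adjusted p = 8.51e-05). The gene has several start sites, whose line differences had opposite signs. The outer promoter, shared with TAF8 on the other strand (chr6:42049711-42051473), had percentiles of 75.6, 83.2, 77.3 and 83.9 in SKBR3 and 62.1, 70.9, 58.0 and 74.5 in MDA-MB-453, higher in SKBR3 by 13.6 points (SE 4.30, adjusted p = 0.0216). This call was lost with q under 1e-05 (11.02 points, adjusted p = 0.291), with lists of equal size (8.91 points, adjusted p = 0.130) and without SKBR3 untreated replicate 2, SKBR3 TWEAK replicate 2, MDA-MB-453 untreated replicate 1 or MDA-MB-453 TWEAK replicate 1 (9.49 to 11.95 points, adjusted p from 0.0624 to 0.0796). The inner promoter (chr6:41933256-41942687) holds the start of the Ensembl canonical transcript, which lies 108.8 kb from the outer promoter. It had 39.1, 48.8, 31.1 and 33.5 in SKBR3 and 59.9 to 63.7 in MDA-MB-453. The difference was −23.9 points (SE 3.85, limma adjusted p = 0.00074), with no overlap between the lines. Upstream of the gene a region (chr6:42087432-42096570) held 2 or 3 peaks, adding up to 6.6 to 7.8 kb, in each of the 4 SKBR3 lists, at 66.8 to 81.0, and in no MDA-MB-453 list.

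The difference in covered length of CCND3 did not hold under a stricter threshold. With only peaks of q under 1e-05, it was −0.37 and did not pass the test (adjusted p = 0.110).

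CCNE1 and CCNE2, which encode the cyclins E1 and E2 that activate CDK2, stood on opposite sides of the line comparison. CCNE1 (chr19:29811991-29824312) had a promoter region (chr19:29810288-29814016) with percentiles of 78.0, 85.7, 81.2 and 87.3 in SKBR3 and 12.7, 27.8, 12.5 and 21.8 in MDA-MB-453. The lines did not overlap, and the difference of 64.4 points (SE 4.88, limma adjusted p = 1.33e-05) was the largest among the promoters with a peak in all 8 lists. The promoter peaks were also wider in SKBR3, 2.4 to 3.7 kb against 0.7 to 1.2 kb (log2 difference 1.86, adjusted p = 0.000397). Downstream of CCNE1, 2 regions with peaks in all 8 lists were 14.7 and 12.7 points higher in SKBR3 (adjusted p = 0.0129 and 0.0102). The covered length was 7.81 ± 0.248 kb in SKBR3 and 3.36 ± 0.429 kb in MDA-MB-453 (SD, n = 4 each), a log2 difference of 1.02 (SE 0.09, adjusted p = 2.82e-05).

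CCNE2 (chr8:94879770-94896678) had the reverse. Its promoter region, shared with NDUFAF6, had percentiles of 80.0, 80.6, 79.6 and 81.9 in MDA-MB-453, with peaks of 3.4 to 4.2 kb. In SKBR3 it had a peak of 0.3 kb in untreated replicate 2, at 38.7, and no peak in the other 3 lists. A region 48.9 kb upstream, nearest to TP53INP1, had peaks in the 4 MDA-MB-453 lists, at 25.0 to 47.4, and in no SKBR3 list. The covered length was 5.15 ± 0.285 kb in MDA-MB-453 and at most 0.279 kb in SKBR3, where 3 of the 4 lists were at 0 (log2 difference −2.53, SE 0.11, limma adjusted p = 8.18e-07). Because SKBR3 was near 0, the size of this difference depends on the 1000 bp added before the logarithm.

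**Figure D2:**
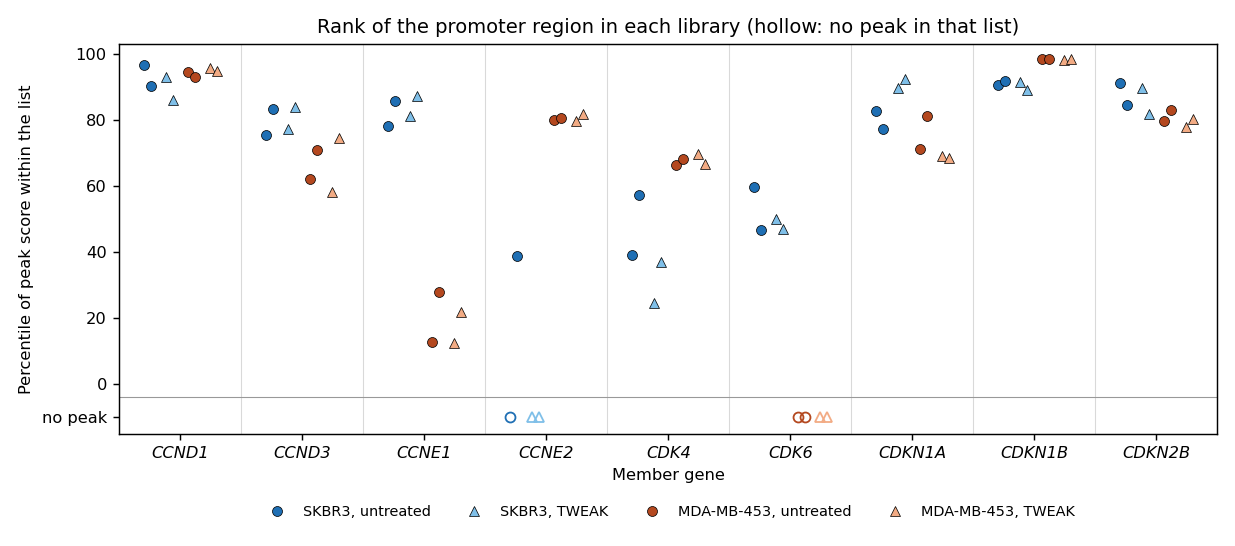
Percentile of the promoter region's highest peak score within each list (y axis) for the 9 genes with a promoter region, with hollow symbols in the lower band for a list without a peak. Where a gene had several promoter regions, the one with the highest mean percentile is shown. For CCND3 this is the outer one, while the inner one ranked lower in SKBR3. CCNE1 lies between 78.0 and 87.3 in SKBR3 and between 12.5 and 27.8 in MDA-MB-453, CCNE2 and CDK6 each lack a peak in most or all lists of one line, and CDKN1B is above 98 in every MDA-MB-453 list.

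CDK4 and CDK6, the kinases that D cyclins activate, also went in opposite directions. CDK4 (chr12:57747727-57756013) had a promoter region shared with MARCHF9 (chr12:57751079-57756831), with percentiles of 39.1, 57.1, 24.6 and 36.9 in SKBR3 and 66.5, 68.3, 69.5 and 66.7 in MDA-MB-453. The difference was −28.3 points (SE 5.02, limma adjusted p = 0.00124), and the peaks were 1.1 to 1.8 kb wide in SKBR3 and 4.8 to 5.5 kb in MDA-MB-453 (log2 difference −2.04, adjusted p = 3.62e-05). All 4 SKBR3 lists were below all 4 MDA-MB-453 lists in both measures.

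The neighbours of CDK4 were mixed. A region at the AGAP2 and TSPAN31 promoters was higher in SKBR3 (87.3 to 92.6 against 82.5 to 85.8, adjusted p = 0.0062) and wider there (4.8 to 5.6 kb against 1.5 to 1.7 kb). The promoter region of CYP27B1 (chr12:57763972-57767573) had percentiles of 72.3 to 75.9 in MDA-MB-453 and no peak in SKBR3. The window as a whole held 10.3 ± 0.876 kb of peak in SKBR3 and 14.9 ± 0.193 kb in MDA-MB-453 (SD, n = 4 each), a log2 difference of −0.49 (SE 0.07, adjusted p = 0.000469).

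CDK6 (chr7:92604921-92836573) had the longest window, 331.7 kb against 106.4 to 215.4 kb for the other members. It also had the most regions of any member, 19, of which 6 had peaks in all 4 SKBR3 lists and in no MDA-MB-453 list. The strongest lay inside the gene, in an intron 184.0 kb from the start (chr7:92649632-92655529). Its percentiles were 93.5, 97.1, 95.1 and 98.9, among the highest of any member region, with peaks of 5.4 to 5.9 kb. Nearby intronic regions of lower rank, also absent from the 4 MDA-MB-453 lists, were at 44.7 to 58.7 (chr7:92644916-92647549) and at 43.3 to 67.1 (chr7:92632930-92635886).

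The CDK6 promoter region (chr7:92832035-92835510) had percentiles of 59.8, 46.6, 50.1 and 46.8 in SKBR3 and no peak in MDA-MB-453. It lay at a start inside the gene, and no region lay within 1 kb of the annotated 5′ end (chr7:92836573). In MDA-MB-453 the gene body held a few distal peaks, of which the one 26.7 kb from the start was in all 8 lists and ranked lower there, at 24.8 to 39.9 against 51.7 to 65.4 (adjusted p = 0.000563). The covered length was 21.8 ± 5.49 kb in SKBR3 and 6.09 ± 0.785 kb in MDA-MB-453 (SD, n = 4 each), a log2 difference of 1.66 (SE 0.14, limma adjusted p = 2.21e-05).

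**Figure D3:**
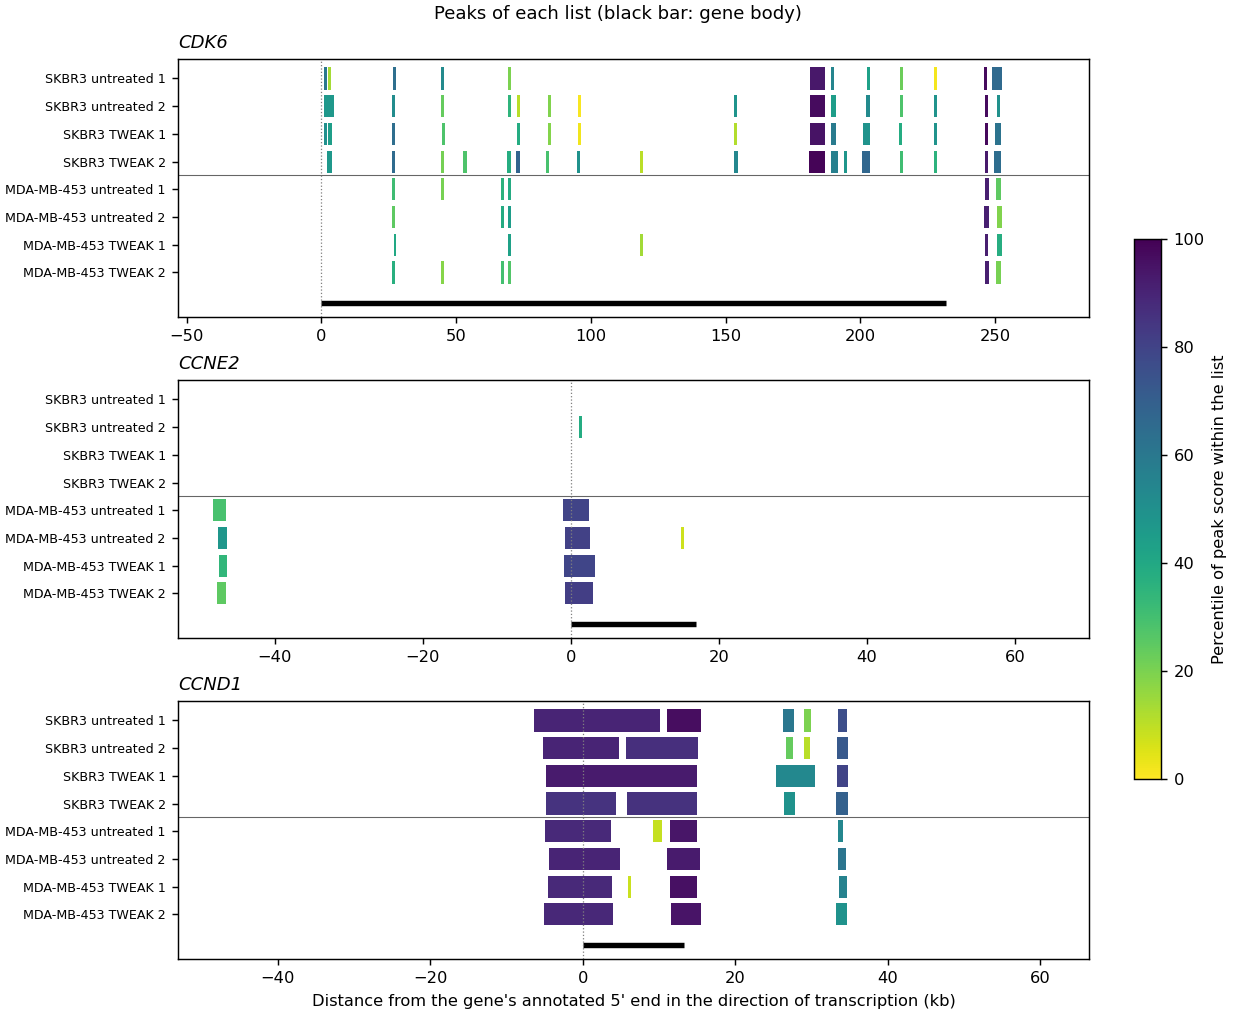
Peaks of each list (rows) around CDK6, CCNE2 and CCND1, placed by distance in kb from the annotated 5′ end of the gene in the direction of transcription, coloured by percentile within the list, with a black bar for the gene body. The dark CDK6 block near 184.0 kb is present in the 4 SKBR3 rows only, CCNE2 has its promoter block in the 4 MDA-MB-453 rows, and the CCND1 domain is made of 1 or 2 long blocks in SKBR3.

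Among the inhibitors, the promoters of CDKN1A and CDKN1B ranked in opposite directions between the lines, and which genes differed in covered length depended on the scaling. On the log2(bp + 1000) scale, with full lists and 50 kb windows, CDKN2B passed and CDKN1A and CDKN1B did not. Per Mb covered, CDKN1A and CDKN1B passed, both lower in SKBR3, and CDKN2B did not. CDKN1A (chr6:36676460-36687337), which encodes p21, had a promoter region (chr6:36678695-36684749) with percentiles of 82.6, 77.1, 89.6 and 92.5 in SKBR3 and 71.2, 81.2, 69.0 and 68.6 in MDA-MB-453, higher in SKBR3 by 12.98 points (SE 2.68, limma adjusted p = 0.00281) although 1 MDA-MB-453 list lay within the SKBR3 range. By exact permutation it did not pass (adjusted p = 0.0850). Its covered lengths of 8.28 ± 1.60 and 7.26 ± 0.379 kb (SD, n = 4 each) overlapped (limma adjusted p = 0.164). The difference passed, higher in SKBR3, with q under 1e-05 (log2 difference 0.65, adjusted p = 0.0330) and with 100 kb windows (0.69, adjusted p = 8.71e-06). Without SKBR3 TWEAK replicate 1 the log2 difference was 0.22. A region 52.8 kb upstream was much higher in SKBR3, at 74.6 to 84.4 against 23.2 to 38.8 (adjusted p = 1.91e-05).

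CDKN1B (chr12:12685498-12722369), which encodes p27, had the highest ranking member promoter in MDA-MB-453 (chr12:12713215-12727755, shared with APOLD1), at 98.6, 98.5, 98.2 and 98.4, against 90.6, 91.9, 91.4 and 89.1 in SKBR3. The difference was −7.65 points (SE 0.691, limma adjusted p = 3.12e-05) with no overlap. The upstream promoter of GPR19, in the same window, was also lower in SKBR3 (−14.2 points, SE 0.870, adjusted p = 5.88e-06). Covered length was 16.7 ± 1.48 and 18.3 ± 0.165 kb (SD, n = 4 each) and did not pass the test (adjusted p = 0.166). It passed, lower in SKBR3, with q under 1e-05 (log2 difference −0.25, limma adjusted p = 0.0330) and per Mb covered (−0.56, adjusted p = 0.000185). Without SKBR3 TWEAK replicate 2 the log2 difference was −0.20. With 100 kb windows it passed in the other direction, higher in SKBR3 (0.44, limma adjusted p = 0.000394).

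CDKN2B (chr9:22002903-22009305), which encodes p15, had a promoter region (chr9:22007741-22010630) at 91.3, 84.5, 89.8 and 81.9 in SKBR3 and 79.8, 83.0, 77.9 and 80.3 in MDA-MB-453. The lines overlapped by 1 list, and the difference of 6.63 points (SE 2.34, limma adjusted p = 0.0341) did not pass in 5 of 7 alternative settings or, in 6 of 8 cases, with 1 library left out, those other than SKBR3 untreated replicate 2 and SKBR3 TWEAK replicate 2 (4.66 to 7.41 points). A distal region 30.6 kb upstream (chr9:22036709-22043055) was clearly apart, at 60.0 to 77.6 in SKBR3 and 42.5 to 51.4 in MDA-MB-453 (adjusted p = 0.00073), with 3.0 to 6.3 kb of peak against 1.4 to 1.7 kb. The promoter of the neighbouring inhibitor CDKN2A, in the same window, had 73.0 to 86.2 in SKBR3 and 77.0 to 81.1 in MDA-MB-453 (adjusted p = 0.754). The covered length was 11.2 ± 2.70 and 6.82 ± 0.607 kb (SD, n = 4 each), a log2 difference of 0.62 (SE 0.10, adjusted p = 0.000742).

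Counted over all members, 9 of the 71 regions had peaks in all SKBR3 lists and in no MDA-MB-453 list (14.1% of all regions), and 4 the other way (10.5% of all regions). Of the 25 regions with peaks in all 8 lists, 15 had a higher percentile in SKBR3 (38.4% of all regions tested) and 5 a higher one in MDA-MB-453 (28.5%). With lists cut to equal size the members split 8 to 5 and with q under 1e-05, where 14 regions were left, 4 to 3, and SKBR3's share of all calls went from 57.5% to 44.7% and 43.0%. The widths of 5 regions were greater in SKBR3 (31% of all regions tested) and of 7 in MDA-MB-453 (29.5%). For covered length, 5 of the 10 members were higher in SKBR3 (48.6% of all genes tested) and 2 in MDA-MB-453 (27.2%). The median log2 difference over all 17541 genes was itself 0.24, since the SKBR3 lists cover more of the genome. Per Mb covered in the whole list it was −0.15, members split 4 to 5, and SKBR3's share of all calls went from 64.1% to 42.9%. On that scale CDKN1A turned to −0.25 (adjusted p = 0.0295), CDKN1B and CCND2 were also called lower in SKBR3, and CDKN2B lost its call (0.22, adjusted p = 0.0511).

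**Figure D4:**
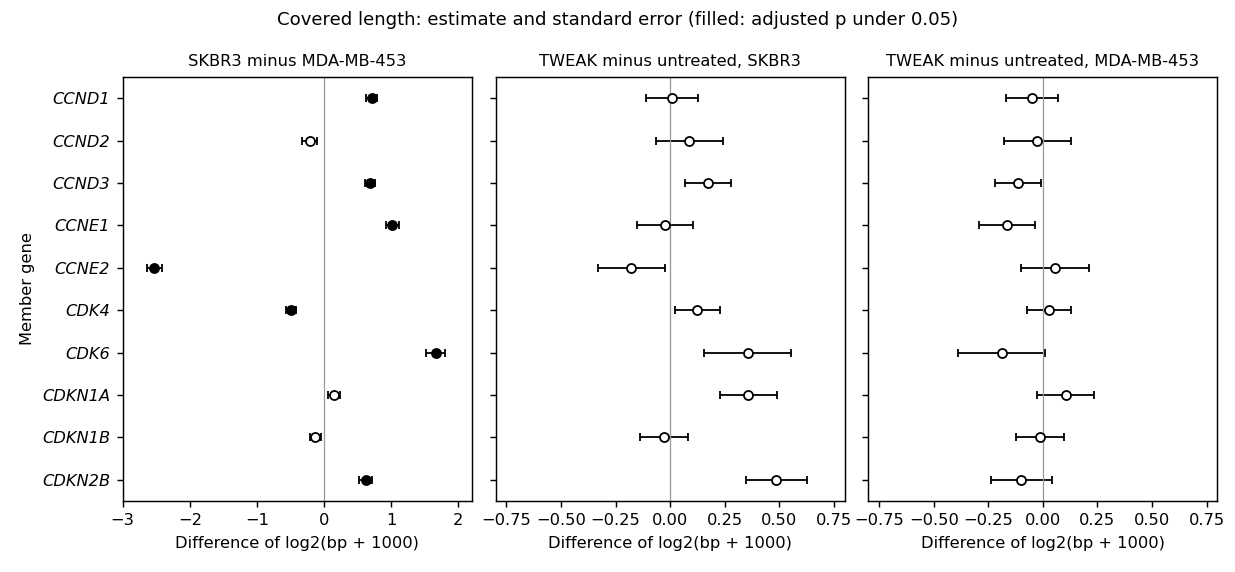
Difference in covered length on the log2(bp + 1000) scale, with its standard error, for the 10 genes between lines (left) and between TWEAK and untreated libraries in SKBR3 (middle) and MDA-MB-453 (right, same axis as the middle), filled where the adjusted p is under 0.05. 7 of 10 line differences are filled, from −2.53 for CCNE2 to 1.66 for CDK6, and no TWEAK difference is.

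With TWEAK, 5 member regions were gained in SKBR3, that is, were listed in the 2 TWEAK libraries and absent from the 2 untreated ones (4.64% of all regions with a peak in SKBR3), and 0 of 63 were lost (1.39%). All 5 lay away from promoters, in the windows of CCND3, CDKN1A and CDKN2B. The first pair lay upstream of CCND3, one at 9.1 and 34.7 in the TWEAK lists (chr6:42079547-42080422) and the other at 32.5 and 62.3 (chr6:42082704-42084244). They were 138.2 and 141.7 kb from the canonical CCND3 start. The nearest start was that of TAF8, at 24.5 and 27.9 kb. Around CDKN1A, a region 35.5 kb upstream (chr6:36642804-36643584), whose AP-1 match is shown above, had 52.0 and 39.1, and also a weak peak in MDA-MB-453 TWEAK replicate 2, at 8.4. A region 33.4 kb downstream of the CDKN1A start (chr6:36711623-36712555) had 14.1 and 34.7. The region 43.8 kb upstream of CDKN2B (chr9:22052643-22053485), with the NF-κB matches, had 2.2 and 5.4, near the bottom of both lists. The matches lay inside the peak of TWEAK replicate 1 and outside that of TWEAK replicate 2, which began at chr9:22052918.

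None of the 5 was gained among peaks with q under 1e-05, where 4 other regions were: near CCNE1, CCND3, CDK6 and CDKN2B, each of which had peaks of higher q in the untreated libraries of the full lists. In MDA-MB-453, 0 of 44 regions were gained (1.27%) and 1 was lost (1.31%), upstream of CDKN1A (chr6:36666883-36667731), at 7.3 and 28.7 in the untreated lists.

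**Figure D5:**
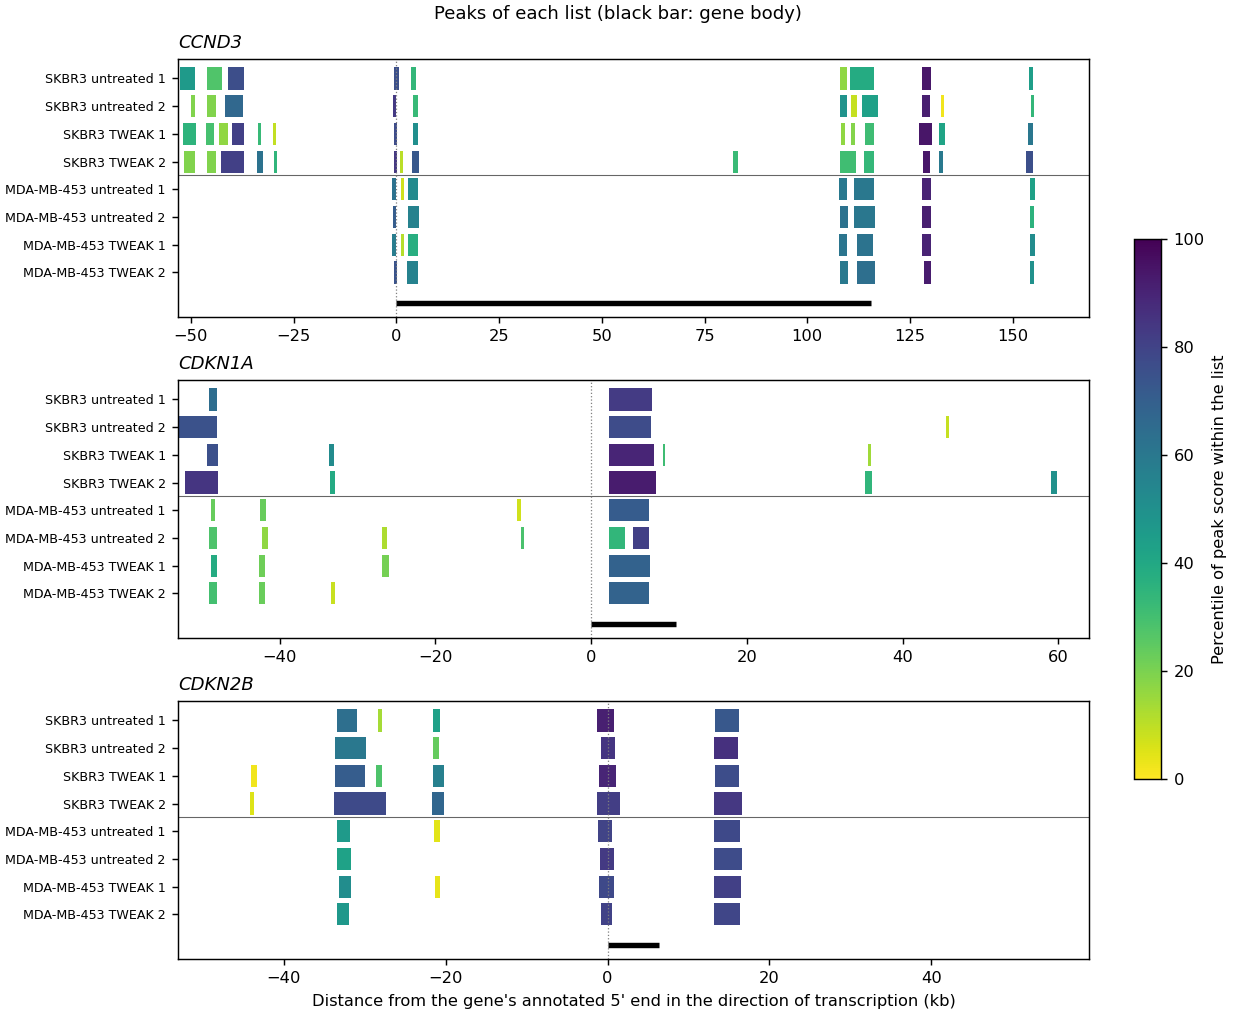
Peaks of each list (rows) around CCND3, CDKN1A and CDKN2B, by distance in kb from the annotated 5′ end of the gene in the direction of transcription, coloured by percentile within the list, with a black bar for the gene body. The gained regions appear as narrow blocks in the 2 SKBR3 TWEAK rows only, except the one upstream of CDKN1A, which is also in MDA-MB-453 TWEAK replicate 2.

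Among regions present in all 4 lists of a line, no member region passed the limma test for percentile in SKBR3 (0 of 38; 0% of all regions tested were called) or in MDA-MB-453 (0 of 32; 0.00335%), and 5 and 2 member regions had an unadjusted p under 0.05. For width, 0 of 38 (0%) and 0 of 32 (0%) passed, with 4 and 0 at an unadjusted p under 0.05. In SKBR3, 13 of 38 regions had both TWEAK percentiles above both untreated ones (20.9% of all regions tested) and 6 had both below (17.3%). In MDA-MB-453 these counts were 8 of 32 (20.6%) and 4 of 32 (17.8%).

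CDKN1A had the member promoter with the largest rise in percentile in SKBR3. Its promoter region went from 82.6 and 77.1 to 89.6 and 92.5, a difference of 11.2 points (SE 3.09) that did not pass the test across all regions (unadjusted p = 0.0065, limma adjusted p = 0.328). With the replicate number as a block it was 1 of 1245 regions called, against 0 of all regions without the block. The labels do not say that same-numbered libraries were paired. In MDA-MB-453 the promoter region went from 71.2 and 81.2 to 69.0 and 68.6 (−7.38 points, adjusted p = 0.655). The difference between these effects was 18.6 points (unadjusted p = 0.00814, adjusted p = 0.506). Among the promoters of the other members the TWEAK differences in SKBR3 ran from −17.4 points for CDK4 to 2.40 for CCNE1, and none passed.

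The other 4 regions with an unadjusted p under 0.05 for percentile in SKBR3 were also higher with TWEAK, by 22.5 to 29.0 points, and none passed. A region at the promoter of USP49, in the CCND3 window (chr6:41894920-41897055), went from 44.5 and 33.8 to 60.3 and 76.01 in SKBR3 (limma adjusted p = 0.456). It also rose in MDA-MB-453, from 42.8 and 35.7 to 51.9 and 49.8 (adjusted p = 0.642). This region and the CCND1 promoter (1.61 points, adjusted p = 0.636) were the 2 with an unadjusted p under 0.05 in MDA-MB-453. An intronic region of CCND3 (chr6:42044873-42047682) went from 33.9 and 32.7 to 50.8 and 72.7 in SKBR3 (limma adjusted p = 0.514). In SKBR3 the 2 TWEAK lists were above the 2 untreated ones at both the USP49 and the intronic region. The region 30.4 kb downstream of the CCNE1 start went from 53.1 and 47.1 to 72.6 and 72.7 in SKBR3 (adjusted p = 0.475), while its width went the other way, from 2142 and 2580 bp to 1372 and 1225 bp (log2 difference −0.86, unadjusted p = 0.0156, adjusted p = 0.561), and it had weak peaks of 9.3 to 16.2 in 3 MDA-MB-453 lists. The region 20.9 kb upstream of CDKN2B went from 43.3 and 23.8 to 57.0 and 67.4 (adjusted p = 0.507).

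Covered length changed with TWEAK at 0 of 10 members in SKBR3 (1.56% of all genes tested) and 0 of 10 in MDA-MB-453 (0%), with 2 and 0 at an unadjusted p under 0.05. Those 2 were inhibitors. CDKN2B went from 9.1 and 9.2 kb to 11.7 and 14.8 kb in SKBR3 (log2 difference 0.49, SE 0.14, limma adjusted p = 0.164), and passed without SKBR3 TWEAK replicate 1 (0.64, adjusted p = 0.0437), where the longest list is the lone TWEAK library. CDKN1A went from 6.6 and 7.6 kb to 8.5 and 10.4 kb (log2 difference 0.36, SE 0.13, adjusted p = 0.249). For each of them the higher TWEAK value was that of replicate 2. No member's TWEAK effect was called different between the lines, whether by percentile (0 of 25; 0%), width (0 of 25; 0%) or covered length (0 of 10; 0.0171%), with 2, 1 and 1 at an unadjusted p under 0.05.

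Of 25 other genes of the G1 to S step, such as RB1, the E2F factors and subunits of the SKP2 ubiquitin ligase, 11 were higher in covered length for SKBR3 (48.6% of all genes tested), 5 were higher for MDA-MB-453 (27.2%), and none passed for TWEAK in either line (5 and 0 at an unadjusted p under 0.05). CDKN2A is among the 25, the 11 and the 5, and its window overlaps that of the member CDKN2B. In MDA-MB-453 both windows held 6.82 ± 0.607 kb of peak. The median line difference of the 25 genes was 0.23, close to the 0.24 over all genes. The extremes were TFDP1, a partner of E2F factors, with 7.71 ± 1.32 kb in SKBR3 and 1.23 ± 0.404 kb in MDA-MB-453 (SD, n = 4 each), and FBXW7, part of the ligase that degrades cyclin E, with 5.54 ± 2.42 and 27.1 ± 0.734 kb. At promoters 23 of the 25 had peaks in all 8 lists, 4 ranked higher in SKBR3 (38.4% of all regions tested), and 11 ranked higher in MDA-MB-453 (28.5%), where RB1 was at a mean of 98.7 against 86.5 in SKBR3 (limma adjusted p = 2.69e-05).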

How the data were processed

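H3K27ac ChIP-seq was measured in 8 libraries. The authors trimmed the reads (Trimmomatic), mapped them to hg38 (Bowtie2), called peaks of each library after subtracting input (MACS2) and dropped blacklisted regions (bedtools). For every peak the deposited lists hold a score in whole numbers, the enrichment as a fold ratio, and p- and q-values as −log10. The calling options are not given in the sources used here. The deposited score stays within 1.0 of 10 times −log10 q, whose lowest value is 1.0. Gene windows came from GENCODE release 44, and peaks were joined with Python 3.11.15. The members and lists were chosen with earlier results of these data known. Regions outside promoters were named where gained, lost, called or among the highest ranking in one line. limma 3.58.1 (R 4.3.3, intensity trend) was fitted to percentiles, log2 widths and log2(bp + 1000) of covered length (genes with a mean of at least 500 bp), within a line for TWEAK and over 4 groups for lines, and was tested on simulated data. The study used DiffBind, which needs reads. Alternatives were a q-value under 1e-05, lists of equal size, a 100 kb window, 50% coverage of a region, merging within a line, ranks by fold enrichment, normal scores, no trend, a replicate block, exact permutation, a 100 bp pseudocount, scaling per Mb covered, no filter on low values, and leaving out each library.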

Additional observations from a re-analysis of the deposited data

How the results depend on the processing

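Without read counts, what limits these comparisons is the caller's threshold and the length of each list, and 2 libraries per group. With only peaks of q under 1e-05, 0 member regions were lost in MDA-MB-453, 4 were in SKBR3 only, and 7 differed between the lines in percentile and 7 in width, against 1, 9, 20 and 12 in the full lists. With lists of equal size 13 differed in percentile. With 100 kb windows 16 regions were in SKBR3 only and 7 in MDA-MB-453 only, and 35 differed in percentile and 20 in width. Requiring peaks over 50% of a region left 5 in SKBR3 only. Directions that turned were CCND3 covered length under the stricter threshold (−0.37, adjusted p = 0.110), CDKN1A per Mb covered (−0.25, adjusted p = 0.0295) and CDKN1B with 100 kb windows (0.44, adjusted p = 0.000394). The cause was not tested. The fits without a trend, with normal scores, by fold enrichment, by exact permutation, with the smaller pseudocount and without a filter kept these counts within 1.5 times of the full fit.

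Leaving out each library in turn gave 6 to 12 regions gained and 0 to 3 lost in SKBR3, 0 to 1 gained and 1 to 3 lost in MDA-MB-453, 9 to 17 in SKBR3 only (17 without untreated replicate 1) and 4 to 5 in MDA-MB-453 only. For the lines, 16 to 20 regions differed in percentile, 9 to 12 in width and 7 to 8 genes in covered length. For TWEAK, 0 to 1 genes passed for covered length in SKBR3 and 0 regions or genes in every other fit; where a group was left with 1 library, it was assumed to vary like the others. Gained regions in SKBR3 numbered 12 without untreated replicate 2 or without TWEAK replicate 1. The labels do not say whether libraries with the same replicate number were prepared together. Their deviations from the group means correlated at 0.33 in SKBR3 and −0.038 in MDA-MB-453. With that number as a replicate block, 1 member region passed for TWEAK in SKBR3, the CDKN1A promoter, among 1245 of all regions (0 without the block), and of the promoter percentiles between the lines CCND1 alone gained a call (adjusted p = 0.00248).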
